A study of Mus musculus with 42 samples.

Results

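The 8 enzymes described here write, copy and remove DNA methylation in the mouse: Dnmt1 and Uhrf1, which maintain it, Dnmt3a, Dnmt3b and Dnmt3l, which set it de novo, and Tet1, Tet2 and Tet3, which oxidise it. They were followed through differentiation of embryonic stem cells (ESCs) into Anterior Definitive Endoderm (ADE) and in d6 cultures treated with the EZH2 inhibitor EPZ6438. Members were chosen by name, with earlier results of these data known, as 8 of the 20972 gene symbols that the arrays measure. Each is represented by its brightest probe over 42 arrays.

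All cultures came from 1 dual reporter ESC line that carries GFP at Gsc, a marker of primitive streak and mesendoderm, and RedStar at Hhex, a marker of definitive endoderm. Untreated groups were ESCs grown with LIF, unsorted d2 cells and cells sorted for the reporters: G- and G+ at d3 and d4, G-, Glow and Ghigh at d5, and G+H- and G+H+ at d6. In the EPZ6438 series all cultures were taken at d6. Control cells received DMSO throughout, ADE_EPZ cells received DMSO as ESCs and 2.5 µM EPZ6438 while they differentiated, and ES_EPZ cells received the inhibitor as ESCs and DMSO afterwards. The labels of this series name no sort, and no group carries a mutation in any of the 8 enzymes. Each of the 14 groups had 3 Agilent one-colour arrays, which the study describes as independent replicate experiments.

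In mammals DNA methylation lies mostly on cytosines of CpG dinucleotides. The hemimethylated CpGs left by replication are recognised by UHRF1, which brings DNMT1 to copy the mark, whereas DNMT3A and DNMT3B methylate unmarked sites, aided by the catalytically inactive cofactor DNMT3L. TET proteins oxidise 5-methylcytosine, which base excision repair can then replace with cytosine. Pluripotent cells leaving the naive state are known to gain methylation as the epiblast forms.

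Levels are the deposited log2 intensities, on which a difference of 1 is a 2-fold difference, and a level is compared only with that of the same probe. All 8 probes were well above background on all 42 arrays. An enzyme was called changed at a limma adjusted p of at most 0.01 and a log2 fold change of 1.5 or more in either direction. It is said to have passed where the first condition held, whatever the size. Some marker lists followed the labels. The mean log2 intensity of 6 ESC markers was 12.77 in ESCs and 8.05 in d6 G+H+ cells, and that of 4 anterior endoderm markers was 5.68 and 13.70. Mean intensity of 4 primitive streak markers was highest in d3 G+ cells, at 12.48, and that of 4 mesoderm markers in d5 Glow cells, at 10.48. Of the visceral endoderm markers Ttr and Afp, neither was above background on all arrays of any untreated group before d6, and 1 of the 2 was in each d6 population. In such bulk samples fewer cells of a type and less RNA per cell cannot be told apart.

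**Figure D1:**
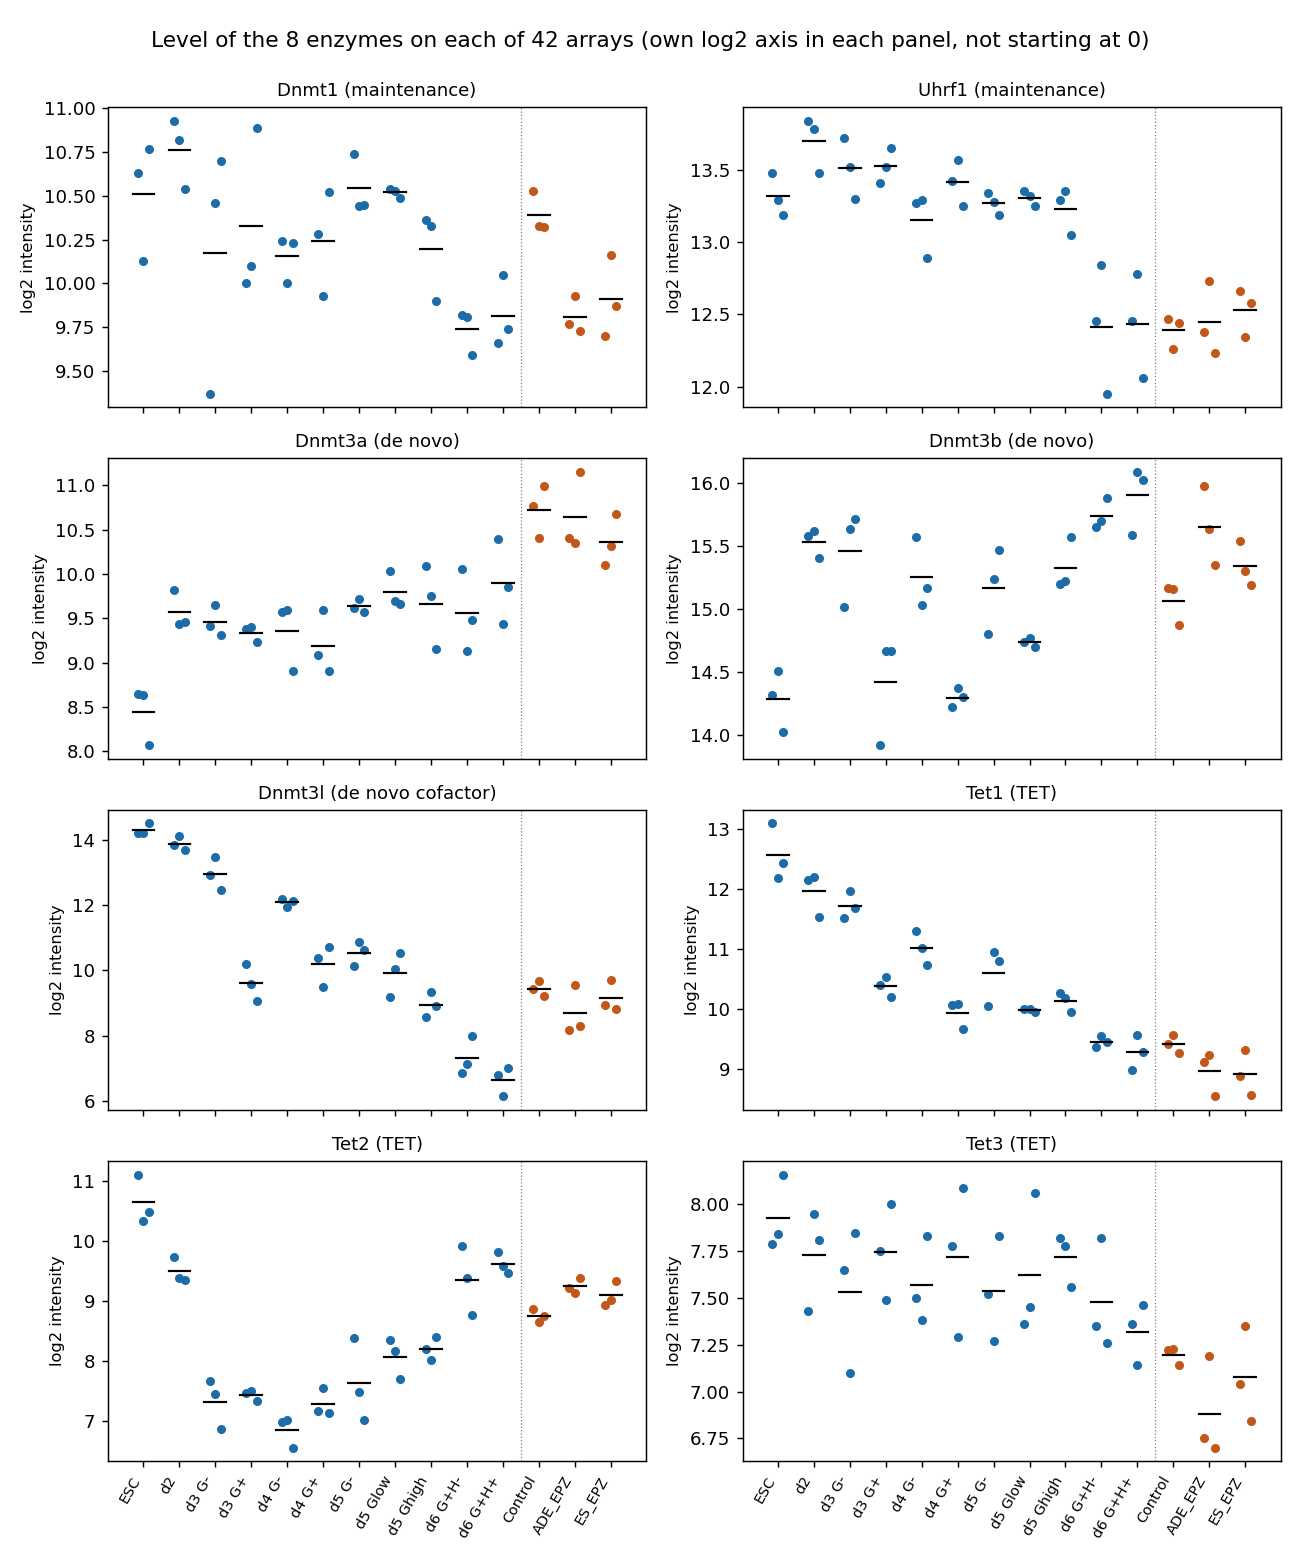
Log2 intensity of the 8 enzymes (vertical axis, a separate scale in each panel) on each array of the 14 groups (horizontal axis). Points are single arrays, 3 a group, blue for untreated groups and orange for the EPZ6438 series, and bars are group means. Dnmt3l runs from 14.31 in ESCs to 6.65 in d6 G+H+ cells, Tet2 is lowest at d4 G-, at 6.84, and Tet3 stays between 7.32 and 7.93 in the untreated groups.

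Set against ESCs in the 10 ADE populations, the enzymes diverged. Of 80 comparisons of an enzyme with ESCs, 24 were called, against 6.29% of all genes pooled over the same comparisons. Calls to a lower level numbered 23, where 3.39% of all genes were called lower, and 1 was to a higher level, where 2.9% were. The lower calls were 8 of Dnmt3l, 8 of Tet1 and 7 of Tet2, and the higher call was Dnmt3b in d6 G+H+ cells. The adjusted p alone was passed by 41 of the 80, against 18.1% of all genes. All 10 comparisons share the ESC arrays, so they are not independent of each other. Among the 10 steps between neighbouring populations 6 of 80 changes were called, all lower, against 1.5% of all genes called and 0.575% called lower. In those steps 12 passed the adjusted p, against 4.36%.

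**Figure D2:**
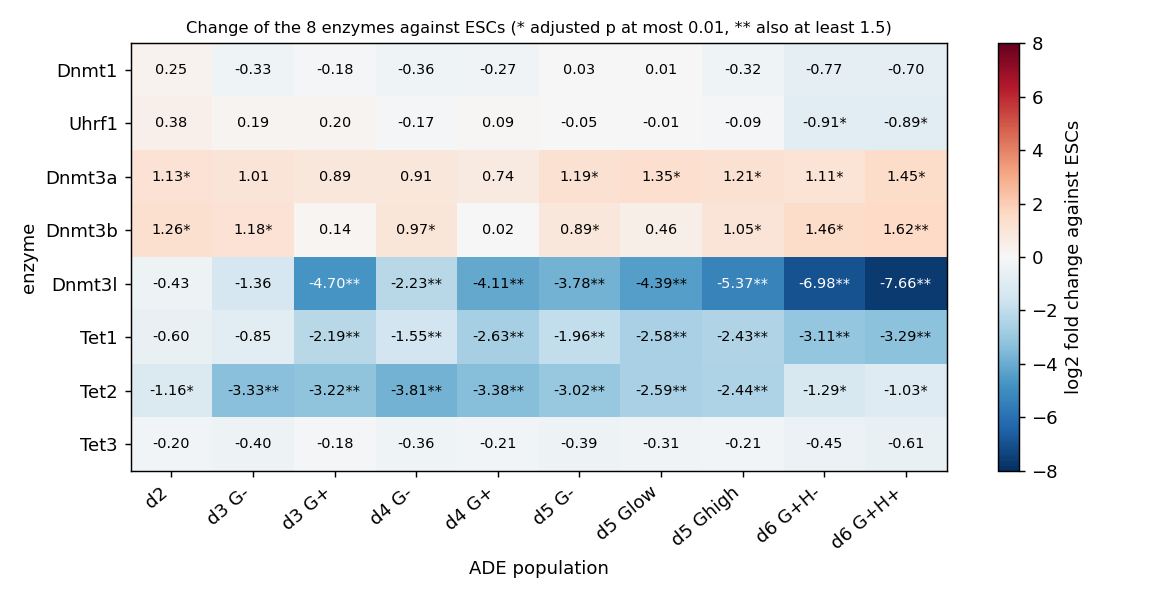
Log2 fold change of each enzyme (rows) in each ADE population (columns) against ESCs, coloured from blue (lower) to red (higher). 1 star marks an adjusted p of at most 0.01 and 2 stars mark a change that is also at least 1.5 in size. Dnmt3l, Tet1 and Tet2 carry all lower calls, and Dnmt3a and Dnmt3b have values above 0 in every population.

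Dnmt3l, the DNMT3 cofactor, fell most of the 8. It had log2 intensities of 14.22, 14.20 and 14.51 on the ESC arrays and 13.85, 14.12 and 13.68 at d2. At d3 the G- arrays read 12.92, 13.49 and 12.45, and the G+ arrays 10.20, 9.59 and 9.05, so that the sorted populations of the day lay apart without overlap. The d4 G- arrays kept 12.20, 11.94 and 12.12, while d4 G+ arrays read 10.39, 9.5 and 10.72. In d6 G+H+ cells the arrays read 6.80, 6.14 and 7.0, a log2 fold change of -7.66 against ESCs (standard error 0.37, limma adjusted p 3.13e-17), or 203-fold lower. Cells of d6 G+H- followed with -6.98 (adjusted p 3.21e-16). In the order of its 11 untreated means, ESC, d2, d3 G- and d4 G- each lay clear of the next, the 5 groups from d5 G- to d5 Ghigh overlapped with their neighbours, and both d6 groups lay clear below. The 6 ESC markers were also highest in ESCs, and their mean was lowest in both d6 groups, at 8.01 and 8.05. Their part in the fall of Dnmt3l was not tested.

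The widest single step of Dnmt3l led from d2 to d3 G+ cells, at -4.27 (adjusted p 1.70e-10), while d3 G- cells differed from ESCs by -1.36 (adjusted p 0.0153), short of the threshold. Cells without Gsc reached a low level later, with d5 G- arrays at 10.12, 10.87 and 10.62 and a change of -3.78 against ESCs (adjusted p 2.62e-09). From d5 Ghigh, with arrays at 8.57, 9.34 and 8.92, the step to d6 was -2.30 for G+H+ (adjusted p 3.44e-05) and -1.61 for G+H- (adjusted p 0.00493). The last call fell below the limit of size with a normexp offset of 50, at -1.39, and with no background correction, at -1.46. It was also lost when single arrays were left out. Without d5 Ghigh replicate 2 it was -1.41 (adjusted p 0.052), and without d5 Ghigh replicate 3 -1.62 (adjusted p 0.0115). Without d6 G+H- replicate 1 it was -1.38 (adjusted p 0.0629), and without d6 G+H- replicate 2 -1.52 (adjusted p 0.022).

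Dnmt3b, the main de novo methyltransferase of the early epiblast, was higher than in ESCs at d2, in G- cells and at d6, but not in G+ cells of d3 and d4. ESC arrays read 14.32, 14.51 and 14.02 and d2 arrays 15.58, 15.62 and 15.41, a log2 fold change of 1.26 (standard error 0.21, adjusted p 8.68e-05). The d3 G+ arrays, at 13.92, 14.67 and 14.67, and the d4 G+ arrays, at 14.22, 14.37 and 14.30, overlapped with ESCs, from which they differed by 0.14 (adjusted p 0.838) and 0.02 (adjusted p 0.989). Arrays of G- cells read 15.02, 15.64 and 15.72 at d3 and 15.57, 15.03 and 15.17 at d4, and passed with 1.18 and 0.97. From d2 to d3 G+ the step was -1.12 (adjusted p 0.000125). Between d4 G+ and d5 Ghigh it rose by 1.03 (adjusted p 0.00204). The d6 G+H+ arrays, at 15.59, 16.09 and 16.03, had the highest mean, 15.90, with 1.62 against ESCs (standard error 0.21, adjusted p 1.02e-07, 3.07-fold). This call rests on the 1.5 limit, since it was 1.41 with the 75th percentile of the processed signal as the scale, 1.41 with slide as a fixed block, and 1.49 without ESC replicate 3. In the order of means the d6 groups came first, of which G+H- lay clear above d2 and G+H+ overlapped with it, d5 Glow lay apart from its neighbours on either side, and d3 G+, d4 G+ and ESCs shared the lowest place. A pair of further probes of Dnmt3b gave 1.65 and 1.75 there, both called.

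Dnmt3a, the other de novo enzyme, was lowest in ESCs, at 8.64, 8.63 and 8.07, and no ESC array overlapped with those of any other group. Means of the ADE populations lay between 9.19 in d4 G+ and 9.89 in d6 G+H+ cells and overlapped from each to the next. Its increase passed the test in 6 of the 10 populations, from 1.11 in d6 G+H- (adjusted p 0.00138) to 1.45 in d6 G+H+ cells (standard error 0.26, adjusted p 4.49e-05), and was not called in any. In the other 4 populations it was between 0.74 and 1.01, with adjusted p from 0.0104 to 0.0461. Both Dnmt3a and Dnmt3b thus passed at d2, with 1.13 (adjusted p 0.0055) for Dnmt3a. With Tet2 these made 3 of 8 enzymes that passed at d2, against 5.68% of all genes, and none was called, against 1.73%. Dnmt3a did not pass at d2 without ESC replicate 1, ESC replicate 3 or any 1 of the d2 arrays, with adjusted p up to 0.0502.

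Tet1, the main TET enzyme of ESCs, was called lower than in ESCs in 8 of the 10 populations. Its ESC arrays read 13.10, 12.18 and 12.43 and those of d2 12.15, 12.21 and 11.54, which overlap. At d3 the G+ arrays, 10.41, 10.54 and 10.20, lay below the G- arrays, 11.52, 11.97 and 11.69. At d6 G+H+ arrays read 8.99, 9.57 and 9.29, a change of -3.29 against ESCs (standard error 0.24, adjusted p 3.80e-13, 9.77-fold lower). The step from d2 to d3 G+ was -1.58 (adjusted p 5.15e-06). The call for d4 G- against ESCs, -1.55, lies at the limit of size, with -1.29 without ESC replicate 1 and -1.41 without d4 G- replicate 3, and so does that step, with -1.49 without d2 replicate 1, -1.46 without d2 replicate 2 and -1.49 without d3 G+ replicate 3. At d5 the G- arrays, 10.06, 10.96 and 10.81, overlapped with Ghigh, at 10.27, 10.19 and 9.96. In the order of means ESC, d2 and d3 G- lay clear above the rest and both d6 groups clear below. Over the 11 untreated group means Tet1 and Dnmt3l correlated at r = 0.96, a description of means that share arrays and carry no test. Among 7722 genes Tet1 ranked 69th in likeness to Dnmt3l, and Dnmt3l 72nd in likeness to Tet1.

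Tet2 was the only TET gene to pass at d2, was lowest at d3 and d4, and rose between d5 and d6. It read 11.11, 10.34 and 10.49 in ESCs and 9.74, 9.39 and 9.35 at d2, a change of -1.16 (adjusted p 0.00457), and the next step was -2.17 to d3 G- (adjusted p 1.69e-06) and -2.06 to d3 G+ cells (adjusted p 3.96e-07). The pass at d2 was lost with the 75th percentile scale and with only the untreated arrays in the fit. It was also lost without ESC replicate 1, d2 replicate 2 or d2 replicate 3, and adjusted p reached 0.0639. The d3 arrays read 7.66, 7.44 and 6.86 in G- and 7.47, 7.5 and 7.33 in G+ cells, which overlap. Its lowest mean, 6.84, was that of d4 G-, with arrays at 6.97, 7.01 and 6.55 and -3.81 against ESCs (standard error 0.26, adjusted p 1.93e-12). From d4 to d5 its differences were 0.79 in G- (adjusted p 0.308), 0.79 from G+ to Glow (adjusted p 0.185) and 0.93 from G+ to Ghigh cells (adjusted p 0.0389), each without overlap of the arrays, and none passed. From d5 Ghigh, with arrays at 8.20, 8.01 and 8.40, it rose by 1.41 to d6 G+H+ (adjusted p 0.00023) and by 1.15 to d6 G+H- (adjusted p 0.0046). The second of these did not pass with the 75th percentile scale, with only the untreated arrays in the fit, or without d5 Ghigh replicate 1, d5 Ghigh replicate 2, d6 G+H- replicate 1 or d6 G+H- replicate 2, with adjusted p up to 0.0892. The d6 G+H+ arrays, 9.82, 9.58 and 9.46, overlapped with d2 but stayed below every ESC array, with -1.03 (adjusted p 0.00288). A second probe of Tet2 gave -1.03 there and -3.54 in d3 G+ cells, where the brighter probe gave -3.22.

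Tet3 passed in none of the 28 comparisons as reported. Its means lay between 7.93 in ESCs and 7.32 in d6 G+H+ cells, each overlapping with its neighbour, and its largest change against ESCs was -0.61 (standard error 0.22, adjusted p 0.0386), which passed with slide as a fixed block (adjusted p 0.00546). The 2 dimmer probes of Tet3, above background on 40 and on 18 of the 42 arrays, gave 0.64 and 0.67 in that comparison and did not pass either, so that probes of Tet3 disagree in sign. In the other 4 enzymes with several probes all of them had the same sign in d6 G+H+ cells.

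In the maintenance pair Uhrf1 passed at d6 and Dnmt1 did not pass. Uhrf1, which directs the copying enzyme to replicated DNA, had means from 13.15 to 13.70 in every group up to d5. At d6 the arrays fell to 12.45, 12.84 and 11.95 in G+H- and to 12.45, 12.78 and 12.06 in G+H+ cells, below all others. Against ESCs these were -0.91 (adjusted p 0.000176) and -0.89 (adjusted p 0.000205), which passed but were not called, and against d5 Ghigh -0.82 (adjusted p 0.00326) and -0.80 (adjusted p 0.00197). Neither step from d5 Ghigh passed without d5 Ghigh replicate 1 or replicate 2. That to G+H- also failed without d6 G+H- replicate 1 or 3, and that to G+H+ without d6 G+H+ replicate 3. Their adjusted p reached 0.0546 and 0.0328. Dnmt1, which copies methylation onto the new strand, had its lowest means in the same populations, 9.74 in G+H- and 9.81 in G+H+. Its differences from ESCs, -0.77 (standard error 0.24, adjusted p 0.0136) and -0.70 (standard error 0.24, adjusted p 0.0261), missed the threshold, and all its neighbouring groups overlapped. They passed with slide as a random block (adjusted p 0.00387 and 0.00531), with slide as a fixed block (0.00348 and 0.00284), with the 75th percentile scale (0.00242 and 0.00352) and without ESC replicate 2 (0.00491 and 0.00905). Over the untreated means the pair correlated at r = 0.83. Among 7722 genes Uhrf1 ranked 154th in likeness to Dnmt1, and Dnmt1 743rd in likeness to Uhrf1.

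Both enzymes act at replication, so cell cycle genes are given beside them. Of 16 S phase genes 8 passed lower in d6 G+H+ cells and none higher, with a median of -0.90 against ESCs, and of 10 mitosis genes 8 passed lower, with a median of -0.85, where 15% of all genes passed lower. Ccne1, a cyclin of S phase entry, was called at -1.75 (adjusted p 8.52e-09), and Gins1, of the replicative helicase, at -1.58 (adjusted p 8.66e-09). In d6 G+H- cells the counts were 9 and 7, with medians of -0.83 and -0.84, where 14% of all genes passed lower and the median of all genes was at 0 in both populations. The part of these genes in the change of Uhrf1 was not tested.

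**Figure D3:**
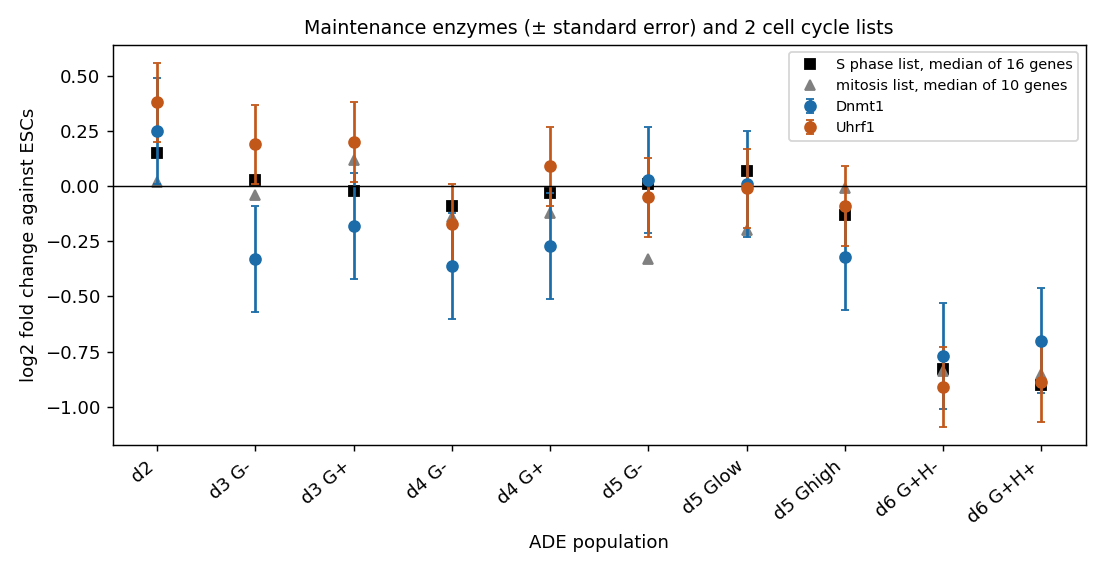
Log2 fold change against ESCs (vertical axis) in the 10 ADE populations (horizontal axis) of Dnmt1 and Uhrf1, with standard errors, and the median of 16 S phase and of 10 mitosis genes. All 4 lie within 0.38 of 0 up to d5 and between -0.70 and -0.91 in both d6 populations.

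To show what the promoters of these genes look like, windows of 300 bases, 250 before and 50 after the start, were taken from RefSeq (GRCm38.p6). The 8 genes have 15 such windows, among 32851. Both strands were searched for the E2F-like motif TTTNGCGC and the octamer ATTTGCAT, which do not overlap. The first was found in 1.38% of all windows, and in 2 of the 15: 1 of Dnmt1 (minus strand, chr9:20952574-20952873) with 2 matches and 1 of Uhrf1 (plus strand, chr17:56304063-56304362) with 1, shown because both enzymes act at replication. The motif holds a CpG, and both windows held 33 CpGs, a number that 8.56% of all windows reach. The share over all windows is therefore not a like background. Capitals mark the motif on either strand. The octamer, in 1.74% of all windows, was in none of the 15. A match of letters is a description and not a binding site.
Dnmt1: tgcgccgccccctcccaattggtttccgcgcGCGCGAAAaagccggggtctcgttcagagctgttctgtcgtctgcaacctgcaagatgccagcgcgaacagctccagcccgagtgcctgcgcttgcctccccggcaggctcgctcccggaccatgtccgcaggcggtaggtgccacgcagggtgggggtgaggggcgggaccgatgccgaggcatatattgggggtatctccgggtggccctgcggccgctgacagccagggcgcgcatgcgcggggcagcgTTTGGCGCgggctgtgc
Uhrf1: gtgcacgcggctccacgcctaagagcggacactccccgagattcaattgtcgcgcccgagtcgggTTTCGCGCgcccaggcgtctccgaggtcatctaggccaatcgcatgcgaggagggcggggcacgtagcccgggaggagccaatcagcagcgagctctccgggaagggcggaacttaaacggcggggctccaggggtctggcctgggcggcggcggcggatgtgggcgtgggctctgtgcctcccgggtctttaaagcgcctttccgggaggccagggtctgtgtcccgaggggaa

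Windows of the genes that fell differed in CpG, the dinucleotide these enzymes act on. The 3 windows of Dnmt3l held 6, 4 and 3 CpGs, below the median of 7 over all windows. The single window of Tet1 held 17, and that of Tet2 held 57, a number that 0.152% of all windows reach. Dnmt3b had 30 and Tet3 22 in their single windows. The first window of Dnmt3l (plus strand, chr10:78042037-78042336), that of Tet1 (minus strand, chr10:62887275-62887574) and that of Tet2 (minus strand, chr3:133544341-133544640) are shown for this contrast, with each CpG in capitals.
Dnmt3l: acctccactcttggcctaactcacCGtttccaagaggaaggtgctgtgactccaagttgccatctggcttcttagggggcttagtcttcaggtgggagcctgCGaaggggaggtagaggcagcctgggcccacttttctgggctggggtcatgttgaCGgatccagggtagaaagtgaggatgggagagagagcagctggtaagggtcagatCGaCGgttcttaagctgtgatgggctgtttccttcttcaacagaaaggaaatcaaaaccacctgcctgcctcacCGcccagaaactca
Tet1: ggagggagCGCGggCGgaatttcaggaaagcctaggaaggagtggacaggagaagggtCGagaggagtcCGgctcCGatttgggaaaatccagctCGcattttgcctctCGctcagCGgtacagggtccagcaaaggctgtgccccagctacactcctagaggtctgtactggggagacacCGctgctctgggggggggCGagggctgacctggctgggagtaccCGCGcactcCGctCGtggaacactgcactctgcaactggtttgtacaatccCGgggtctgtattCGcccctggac
Tet2: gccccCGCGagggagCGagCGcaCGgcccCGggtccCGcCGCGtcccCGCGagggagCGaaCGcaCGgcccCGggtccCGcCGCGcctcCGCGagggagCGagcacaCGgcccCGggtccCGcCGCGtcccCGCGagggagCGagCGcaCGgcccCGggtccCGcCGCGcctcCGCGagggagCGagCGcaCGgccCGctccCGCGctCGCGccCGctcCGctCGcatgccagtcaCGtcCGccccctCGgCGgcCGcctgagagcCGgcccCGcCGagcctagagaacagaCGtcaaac

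The comparison of G+ with G- cells of 1 day asks how expression differs once Gsc is on. At d3, 3 of 8 enzymes passed, against 4.38% of all genes, and all 3 were lower in G+ cells: Dnmt3l by -3.34 (standard error 0.37, adjusted p 1.98e-07), Tet1 by -1.34 (adjusted p 0.000268) and Dnmt3b by -1.04 (adjusted p 0.00115). Dnmt3l was called, 10.2-fold lower, against 1.8% of all genes called and 1.1% called lower. At d4 Dnmt3l, Tet1 and Dnmt3b again passed, at -1.88 (adjusted p 0.00118), -1.08 (adjusted p 0.00337) and -0.96 (adjusted p 0.00279), against 5.2% of all genes. Dnmt3l was called, against 2.28% of all genes called and 1.47% called lower, but without d4 G+ replicate 2 it was -1.53 (adjusted p 0.0178) and no enzyme was called. Tet1 at d4 did not pass with the 75th percentile scale or without d4 G- replicate 1, d4 G- replicate 2, d4 G+ replicate 1 or d4 G+ replicate 3, with adjusted p up to 0.0368. Dnmt3b at d4 did not pass with that scale or without d4 G- replicate 1, d4 G+ replicate 1 or d4 G+ replicate 3, with adjusted p up to 0.0378, and at d3 without d3 G- replicate 2, d3 G- replicate 3 or d3 G+ replicate 1, with adjusted p up to 0.0243. In each of these 6 cases all 9 pairs of a G+ and a G- array ran the same way. The 6 were picked by a test on the same arrays, and no share of all genes was taken for this order. Tet2 at d4, which did not pass (0.43, limma adjusted p 0.578), also had all 9 pairs one way.

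In the same populations the mean of the 4 mesoderm markers was 9.30 in d3 G+ against 7.19 in d3 G- cells, and that of the 6 ESC markers 10.00 against 10.47. Among the ESC markers Esrrb and Zfp42 were lower in G+ cells, at -2.66 (adjusted p 0.00233) and -2.22 (adjusted p 3.24e-05), while Tbx3 was higher, at 4.10 (adjusted p 0.000206). Their part in the differences of the enzymes was not tested. Whether the G+ to G- difference changed between d3 and d4 was tested as an interaction. No enzyme passed and none was called in limma, as for all genes (0.0% and 0.0%), and 1 of 8 was under an unadjusted p of 0.05, against 3.45% of all genes. That 1 was Dnmt3l, with 1.46 (standard error 0.53, unadjusted p 0.00914, adjusted p 1.0).

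**Figure D4:**
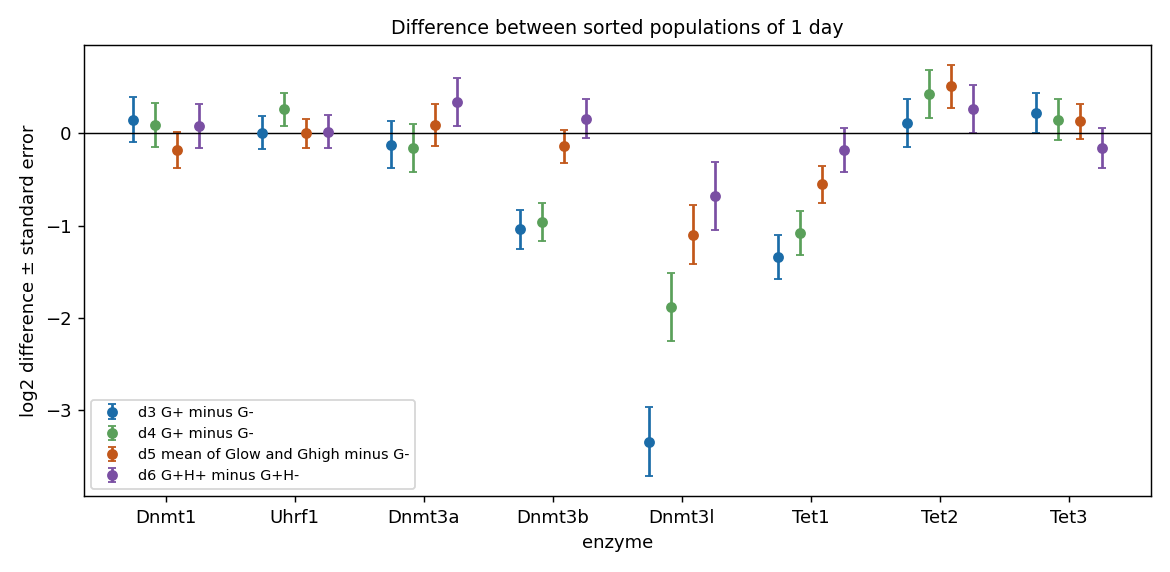
Log2 difference with its standard error (vertical axis) between sorted populations of 1 day for each enzyme (horizontal axis), at d3, d4, d5 and d6. Dnmt3l, Tet1 and Dnmt3b lie below 0 at d3 and d4, from -3.34 to -0.96, and the remaining enzymes within 0.43 of 0 there.

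At d5 both G+ gates, Glow and Ghigh, were averaged and set against G-. None of the 8 passed or was called in limma, against 4.67% and 1.7% of all genes, and 3 were under an unadjusted p of 0.05, against 19.5%. These were Dnmt3l at -1.10 (adjusted p 0.042), Tet1 at -0.55 (adjusted p 0.155) and Tet2 at 0.51 (adjusted p 0.307). The G+H+ and G+H- cells of d6 differ by Hhex. There none passed or was called in limma, as for all genes (0.0% and 0.0%), and 0 were under an unadjusted p of 0.05, against 6.01%. The widest of these differences was that of Dnmt3l, -0.68, with a 95% interval from -1.44 to 0.07.

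The EPZ6438 series asks how the cultures respond to loss of EZH2 activity, by inhibition during or before differentiation. Against Control no enzyme passed or was called in limma in ADE_EPZ cells, against 11% and 2.78% of all genes, and 2 were under an unadjusted p of 0.05, against 30.9%. In ES_EPZ cells none passed or was called, against 0.844% and 0.429%, and 2 were under an unadjusted p of 0.05, against 18.8%. Between ADE_EPZ and ES_EPZ, the test of the regimens against each other, none passed or was called, against 0.439% and 0.129%, and 0 were under an unadjusted p of 0.05, against 13%. The same counts of 0 passed were found under every alternative processing that was run.

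The intervals bound what could have been missed. Dnmt1 read 10.53, 10.33 and 10.32 in Control, 9.77, 9.93 and 9.73 in ADE_EPZ and 9.70, 10.16 and 9.87 in ES_EPZ, so that neither regimen overlapped with Control. Its differences were -0.58 (95% interval from -1.07 to -0.10, adjusted p 0.126) and -0.49 (from -0.97 to -0.01, adjusted p 0.384). Both were below 0 on each of the 3 slides, which follows from the lack of overlap. Dnmt3b read 15.17, 15.16 and 14.87 in Control and 15.98, 15.64 and 15.35 in ADE_EPZ, with 0.59 (from 0.17 to 1.01, adjusted p 0.0621). Those are the only changes of the 8 with an interval that leaves out 0 in ADE_EPZ. Tet1 in ES_EPZ was at -0.49 (from -0.97 to -0.01, adjusted p 0.379). In ADE_EPZ it was at -0.45 (from -0.93 to 0.03, adjusted p 0.294), without overlap with Control. Both differences of Tet1 were below 0 on each of the 3 slides, which in ADE_EPZ follows from the lack of overlap. Both regimens were set against the same Control arrays, so their differences are not independent of each other. No share of all genes was taken for the lack of overlap with Control, for any enzyme of this series. Dnmt3l read 9.43, 9.66 and 9.2 in Control and 8.17, 9.56 and 8.31 in ADE_EPZ, which overlap, with -0.75 (from -1.51 to 0.01, adjusted p 0.259) and a difference below 0 on 2 of 3 slides. Tet2 read 9.22, 9.13 and 9.39 in ADE_EPZ and 8.87, 8.65 and 8.74 in Control, which do not overlap, with 0.49 (from -0.05 to 1.03, adjusted p 0.312). For Uhrf1 the intervals ran from -0.31 to 0.43 in ADE_EPZ and from -0.23 to 0.51 in ES_EPZ.

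**Figure D5:**
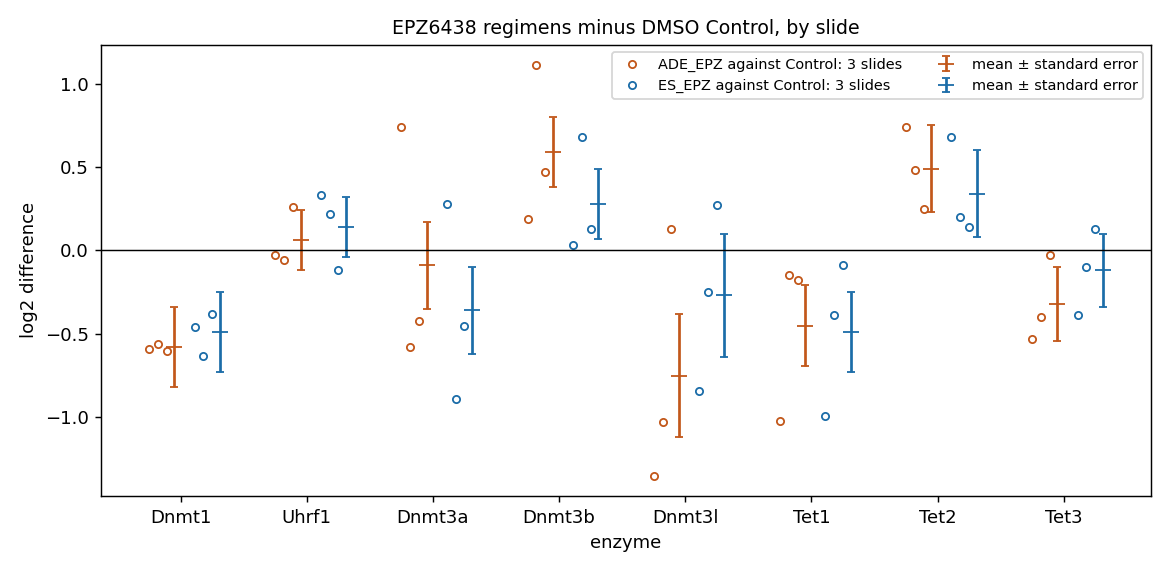
Log2 difference from Control (vertical axis) of each enzyme (horizontal axis) in ADE_EPZ (orange) and ES_EPZ (blue). Open circles are differences within each of the 3 slides, and bars are the mean with its standard error. Dnmt1 and Tet1 lie below 0 on all slides in both regimens, from -0.63 to -0.38 and from -1.02 to -0.09, and Dnmt3b and Tet2 above 0.

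Marker genes of other cell types were also read in the 3 regimens. The mean of 4 mesoderm markers was 9.86 in Control, 8.67 in ADE_EPZ and 9.07 in ES_EPZ, and that of 4 anterior endoderm markers was 11.83, 13.39 and 12.86. In ADE_EPZ 5 of 16 S phase genes passed lower, against 5.47% of all genes, and 1 higher, with a median of -0.45. Of 10 mitosis genes 1 passed lower there and 0 higher, with a median of -0.23. In ES_EPZ 0 of the S phase and 0 of the mitosis genes passed, against 0.844% of all genes, with medians of -0.27 and -0.29. Their part in the values of Dnmt1 was not tested. Control cultures and the sorted d6 populations differ in sort, slide and series at once, which cannot be told apart, so their levels are given side by side only: 9.43 in Control against 6.65 in d6 G+H+ for Dnmt3l, and 10.72 against 9.89 for Dnmt3a.

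Of 43 other genes of methylation and demethylation, 2 were called higher and 7 lower in d6 G+H+ cells against ESCs. Over all genes 5.79% were called higher and 5.33% lower, 11.1% together, and 3 of the 8 enzymes were called. Among 7 genes listed with maintenance 6 passed lower, against 15% of all genes, and 1 higher, with 3 called. The list mixes roles, since Dppa3 keeps UHRF1 from chromatin and so acts against maintenance. Dppa3 was called at -3.97 on the log2 scale (adjusted p 1.01e-06, above background on 1 of 3 d6 arrays). The chromatin remodelling factors Cdca7 and Hells were called at -2.53 (adjusted p 1.05e-11) and -1.68 (adjusted p 2.30e-05). Of the 7 regulators of de novo methylation only Prdm14, a repressor of Dnmt3 genes in naive cells, was called. Its level was 9.27 in ESCs, and none of the 3 arrays of d6 G+H+ cells was above background, which made it at least 25.9-fold lower (adjusted p 3.16e-12).

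Of 13 base excision and demethylation factors 2 were called lower in that comparison, the stress gene Gadd45a at -3.23 (adjusted p 1.09e-10) and the DNA glycosylase gene Neil2 at -1.78 (adjusted p 3.01e-07). Among 8 methylation readers Zbtb4 was called higher at 2.05 (adjusted p 3.20e-07) and Zbtb38 lower at -1.55 (adjusted p 4.61e-09). Of 5 TET partners and cofactor enzymes Idh1, whose product 2-oxoglutarate is a TET cosubstrate, was called at 1.61 (adjusted p 2.59e-07), and none of 3 methyl donor enzymes was called.

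At d2 3 of the 43 were called, against 1.73% of all genes, all lower: Prdm14 at -2.41 (adjusted p 4.30e-05), Idh2 at -2.23 (adjusted p 1.11e-09) and Gadd45b at -1.83 (adjusted p 2.31e-07). Between d3 G+ and G- cells Dppa3 was called at -2.60 (adjusted p 0.00369) and Neil2 at -1.51 (adjusted p 6.01e-05), against 1.8% of all genes called. At d4 Dppa3, Prdm14 and Neil2 were called at -3.38, -1.72 and -1.51, against 2.28% of all genes. There Dppa3 was above background on 1 and Prdm14 on 2 of the 3 G+ arrays, so these values rest partly on signal at background. In the 3 EPZ6438 comparisons none of the 43 was called, against 2.78% (ADE_EPZ), 0.429% (ES_EPZ) and 0.129% (one against the other) of all genes, and their medians were -0.22, -0.22 and -0.06 where those of all genes were within 0.01 of 0.

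The genes most like each enzyme were looked up among 7722 genes that span at least 1 on the log2 scale, by Pearson correlation over the 11 untreated group means. Nearest to Dnmt3l were Angptl4, Sema4a and Mtss1, and nearest to Tet1 were Msh6, Cenpv and Noxa1, all at r = 0.99. Uhrf1 lay nearest to Cenpn and Wdhd1 at 0.98, and Dnmt1 to Pold2, Ptgis and Map1a, at 0.93 to 0.95. Tet2 was most like Inhbb, Ubxn11 and Acp6, at 0.93 to 0.95, Dnmt3a like Ttc39c, Chd3 and Dhcr7, at 0.91 to 0.96, and Dnmt3b like Nbeal2, Nme3 and Slc35f3, at 0.91 to 0.92. Tet3 spanned less than 1 and was left out. The group means share arrays between genes, and these values carry no test.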

How the data were processed

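The authors deposited 1 file of the scanner software for each of 42 Agilent one-colour arrays, with median foreground and background intensity per spot, and 1 table of log2 intensity for which they corrected background by normexp (offset 10) and normalised by quantiles. The submitters' processing notes name limma. The deposited log2 values were used, averaged over the spots of a probe (55681 probes), and were also recomputed from the deposited intensity files (correlation of at least 0.999989 on each array). No spot was saturated, and 25908 to 40428 probes per untreated array and 24504 to 34816 per array of the EPZ6438 series were well above background. The number of arrays, 3 a group, limits the precision.

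Probes were named through the RefSeq accession in the files and a RefSeq table (GRCm38.p6) that served for names, so that 27656 probes had 20972 symbols. The 8 members had 15 probes. Limma 3.58.1 in R 4.3.3 fitted 1 mean per group over all arrays, with Benjamini-Hochberg adjustment across the 55681 probes in each comparison. Members and lists were chosen with earlier results of these data known. Named beside the members are called genes of the pathway lists, marker genes and, per member, the 3 genes nearest in pattern, of which 1 is not reported here. The procedure was tested on simulated data. Replicate 1 and 2 of the untreated groups and replicate 3 lay on different slides (5 in all), and the EPZ6438 series on 3 others.

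Alternatives were recomputed values, an offset of 50, no background correction, the 75th percentile of the processed signal, normalisation or fit within a series, replicate number or slide as a block, only probes above background, the mean over a gene's probes, and the loss of any 1 array. Other data of the study were not analysed here.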

Additional observations from a re-analysis of the deposited data

How the results depend on the processing

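No change that passed reversed sign under any alternative. Of 59 such changes 42 passed under every alternative, and of 32 calls 27 were kept under every one. The other 5 calls were Dnmt3l in d6 G+H- against d5 Ghigh and in d4 G+ against G-, Tet1 in d4 G- against ESCs and in d3 G+ against d2, and Dnmt3b in d6 G+H+ against ESCs. Calls against ESCs numbered 23 to 24 under other processing and 23 to 26 with an array left out, where 24 were reported, and those in steps 5 to 7 and 5 to 6, where 6 were. The comparison of d4 G+ with G- had 1 call throughout except 0 without d4 G+ replicate 2, a range of 0 to 1, and d3 G+ against G- had 1 throughout. The other 6 comparisons had 0 calls in every setting.

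Replicate numbers are shared by the groups, and same-numbered arrays deviated together more often than others. In the untreated groups 123 of 165 same-numbered pairs correlated over 0.1, against 65 of 330 pairs of different number. In the EPZ6438 series 6 of 9 did, against 1 of 18. Of 42 arrays 33 were closest to one of their own number. The reported fit does not use this pairing. As a replicate block the number left all counts of calls as they were, 24 against ESCs, 6 in steps, 1 at d3 and at d4 and 0 in the other comparisons. With that replicate block 8 further changes passed and none was lost: Dnmt3a in d3 G- (adjusted p 0.000843), d3 G+ (0.00148), d4 G- (0.00201) and d4 G+ (0.00706) against ESCs, and so in all 10 populations, Dnmt3l (0.00719) and Tet1 (0.00526) in d3 G- against ESCs, Tet2 in d5 Ghigh against d4 G+ (0.00423) and Tet1 in d6 G+H+ against d5 Ghigh (0.00338). Of the 59 changes that passed, 55 had a slide with both groups, and all 55 kept their direction on each such slide. This was fixed in advance, since the arrays compared in each of these changes did not overlap, and it is no separate support. Levels recomputed from the scanner files moved by over 1 SD in 6 of 112 cases. With 3 arrays a group the standard errors of single changes against ESCs were 0.18 to 0.37 on the log2 scale.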
